A study of Mus musculus with 17 samples.

Results

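The genes described here control the direction of sugar carbon in the cell. They are 9 named mouse genes, namely Pck1, G6pc, Fbp1 and Pcx of gluconeogenesis, Hk1, Hk2, Pfkfb3 and Pkm of glycolysis, and Khk of fructose metabolism. All 9 were found among the 21938 protein-coding genes of the annotation used, and all 9 had a promoter summit in at least 3 of the 17 libraries, as had 12503 of those genes. The measurement was ATAC-seq, in which a transposase cuts accessible chromatin, on kidney cells at 20000 cells per library. Each library was 1 male mouse and is given as a list of MACS2 summits, the positions where accessibility peaked. C57BL/6 mice given saline formed the Ctrl group (n = 5). The Case group (n = 6) consisted of diabetic animals of the strain BKS.Cg-Dock7m +/+ Leprdb/J, homozygous for db (db/db) and so without a working leptin receptor, on saline too. Animals of the same strain that received dapagliflozin by gavage at 1 mg/kg/day for 6 weeks made up the Dapa group (n = 6), the drug being a blocker of the sodium-glucose cotransporter SGLT2. All mice were 8 weeks old at the start. Leptin receptor genotype, diabetes and strain background changed together between Ctrl and the other groups and cannot be told apart.

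Gluconeogenesis makes glucose from lactate, amino acids and glycerol, and the proximal tubule of the kidney is, with the liver, one of the sites where it takes place. Pyruvate carboxylase and phosphoenolpyruvate carboxykinase start the pathway, fructose-1,6-bisphosphatase and glucose-6-phosphatase finish it, and hexokinase, phosphofructokinase and pyruvate kinase drive the opposite flow. Because SGLT2 brings filtered glucose into the proximal tubule, sugar handling in these cells is a natural place to look in db/db mice and in mice given its inhibitor.

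Each library listed 29702 to 56659 summits, so each list was limited to its top 29702 by score, as many as the shortest one holds. The level of a gene was the rank percentile of its strongest summit within 1 kb of any annotated transcription start, where higher values lie nearer the top of that library's list and 0 means that no summit was listed there. Sequencing depth is unknown. Labelled tissue was checked with marker promoters. Of 8 proximal tubule markers, 4 to 7 had a promoter summit in a library, with Aqp1 and Lrp2 in all 17, whereas the hepatocyte promoters Alb, Apoa1, Ttr, Ahsg and F2 had none in any library and the hepatocyte list's Apoh had one in all 17. The leukocyte marker Ptprc was at 0 in every library, as were the endothelial markers Pecam1 and Cdh5, while the endothelial Kdr had a summit in 2 libraries and the leukocyte Coro1a and Laptm5 in 6 and 3. Of 5 skeletal muscle markers, 1 to 3 had a promoter summit in each library, with Actn3 in 17 and Ckm in 16. In such bulk libraries fewer cells of a type and less open chromatin per cell cannot be told apart. Earlier results of these data set Case 2, Case 3 and Dapa 8 apart from the other libraries, and the differences that they turn or move most are also given without them. Whether these libraries differ in the tissue sampled or in their labels was not tested, and by markers Case 2 lay within the other libraries (summed percentile of the proximal tubule markers 302.7, of the leukocyte markers 0).

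The promoters of the gluconeogenic enzymes and of Hk2 are shown because the former form the pathway itself and Hk2 has the lowest level, and the Pfkfb3 intron because its presence differed most between groups. Promoters are RefSeq sequences of GRCm38.p6, 250 bases before to 50 bases after the start, and the intronic site is 300 bases around the middle of the summits in the same build. All are written on the strand of the gene, with capitals for matches on either strand to the short form of the cyclic AMP response element (TGACG, which the full form TGACGTCA contains), the TATA box (TATAAA), the CCAAT box (CCAAT), the GC box (GGGCGG), the E-box (CACGTG) with the hypoxia core (ACGTG) that it contains, and a FOXO-type site (TATTTAC).
Pck1 promoter, chr2:173152823-173153122, plus strand: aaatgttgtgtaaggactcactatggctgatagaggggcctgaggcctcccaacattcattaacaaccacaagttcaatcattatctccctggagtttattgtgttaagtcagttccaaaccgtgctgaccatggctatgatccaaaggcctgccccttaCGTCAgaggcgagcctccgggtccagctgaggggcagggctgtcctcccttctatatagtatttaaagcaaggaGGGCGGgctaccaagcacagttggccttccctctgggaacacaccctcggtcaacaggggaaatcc
G6pc promoter, chr11:101367466-101367765, plus strand: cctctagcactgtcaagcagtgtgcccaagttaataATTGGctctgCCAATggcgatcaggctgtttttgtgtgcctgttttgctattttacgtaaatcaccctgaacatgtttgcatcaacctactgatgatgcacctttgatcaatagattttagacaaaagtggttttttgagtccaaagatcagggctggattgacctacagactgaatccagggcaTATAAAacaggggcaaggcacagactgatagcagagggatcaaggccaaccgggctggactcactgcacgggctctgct
Fbp1 promoter, chr13:62888233-62888532, minus strand: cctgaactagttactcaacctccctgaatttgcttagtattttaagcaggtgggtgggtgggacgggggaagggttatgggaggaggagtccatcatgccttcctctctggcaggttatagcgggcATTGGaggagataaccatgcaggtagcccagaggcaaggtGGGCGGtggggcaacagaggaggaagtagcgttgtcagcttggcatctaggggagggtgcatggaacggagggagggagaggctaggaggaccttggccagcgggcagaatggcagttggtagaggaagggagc
Pcx promoter, chr19:4510222-4510521, plus strand: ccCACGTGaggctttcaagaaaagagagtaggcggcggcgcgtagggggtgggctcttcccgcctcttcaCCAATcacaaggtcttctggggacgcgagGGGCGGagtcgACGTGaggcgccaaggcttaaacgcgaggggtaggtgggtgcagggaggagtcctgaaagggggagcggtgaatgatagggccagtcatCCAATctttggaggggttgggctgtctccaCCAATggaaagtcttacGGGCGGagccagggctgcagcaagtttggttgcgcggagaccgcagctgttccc
Hk2 promoter, chr6:82774405-82774704, minus strand: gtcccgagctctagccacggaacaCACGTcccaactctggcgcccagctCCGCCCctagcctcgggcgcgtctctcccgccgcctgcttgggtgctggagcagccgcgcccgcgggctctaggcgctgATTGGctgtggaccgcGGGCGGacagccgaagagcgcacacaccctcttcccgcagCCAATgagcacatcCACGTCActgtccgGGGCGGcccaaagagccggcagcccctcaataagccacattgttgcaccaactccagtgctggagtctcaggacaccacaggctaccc
Pfkfb3 intronic site, chr2:11546148-11546447, minus strand: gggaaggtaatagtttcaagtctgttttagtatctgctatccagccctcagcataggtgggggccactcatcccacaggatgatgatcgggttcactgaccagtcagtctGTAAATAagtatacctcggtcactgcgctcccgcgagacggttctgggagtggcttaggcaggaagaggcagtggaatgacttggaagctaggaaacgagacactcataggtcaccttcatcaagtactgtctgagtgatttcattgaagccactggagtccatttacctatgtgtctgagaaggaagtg

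Motif positions count from the start used for each RefSeq promoter. For G6pc and Pck1 that start lies downstream of the annotated gene start from which summit distances are counted. Among the 13 RefSeq promoters of the 9 genes, TATAAA was found in that of G6pc alone, at −29 bases from its RefSeq promoter start. Of all 32851 promoters, 13.6% hold it. Pck1 carried TGACG on the opposite strand, at −90 bases from its RefSeq promoter start, a match that 20.8% of all promoters hold. GGGCGG was present in 8 of the 13 promoters and in 35.7% of all, and CCAAT in 6 of the 13 and in 37.4% of all. The E-box was found at −248 in Pcx, one of 3 of the 13 promoters that hold it, against 7.15% of all. Hk2 carried ACGTG at −226 and at −52, where it overlaps TGACG, and ACGTG was found in 7 of the 13 and in 19.6% of all. GCGTG, the other form of the hypoxia core searched, went the other way, in 2 of the 13 and in 32.4% of all. The full element TGACGTCA, the FOXO-type letters TGTTTAC and TATTTAC and the HNF4A-type letters CAAAGTCC and TGGACTTTG were found in none of the 13. Among the 5 promoters printed, the GC content ran from 46.7% for G6pc to 67.3% for Hk2, with a median of 52.7% over all promoters. In the Pfkfb3 intronic site the only match was TATTTAC, which 2.21% of the 21875 regions found in at least 9 libraries also hold in a window of the same size.

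Promoter levels of the 9 genes covered nearly the whole scale. Averaged over the 17 libraries, Pcx was highest at 96.0 ± 2.28 (SD, n = 17), above 95.5% of the genes tested, followed by Fbp1 at 82.8 ± 8.08, Pck1 at 80.6 ± 10.7 and Pfkfb3 at 79.3 ± 9.39. Khk stood at 60.9 ± 16.7, G6pc at 45.7 ± 25.7, Pkm at 36.3 ± 28.7, Hk1 at 22.4 ± 25.8 and Hk2 at 7.44 ± 18.0. In this order Pcx differed from Fbp1, and Pfkfb3 from Khk, by more than the larger SD of the pair, and no other neighbours did. Levels of different genes are ranks of their strongest promoter summit, and genes with more annotated starts have more chances of one: G6pc has 1 start, whereas Hk1 has 12 and Pfkfb3 has 13.

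**Figure D1:**
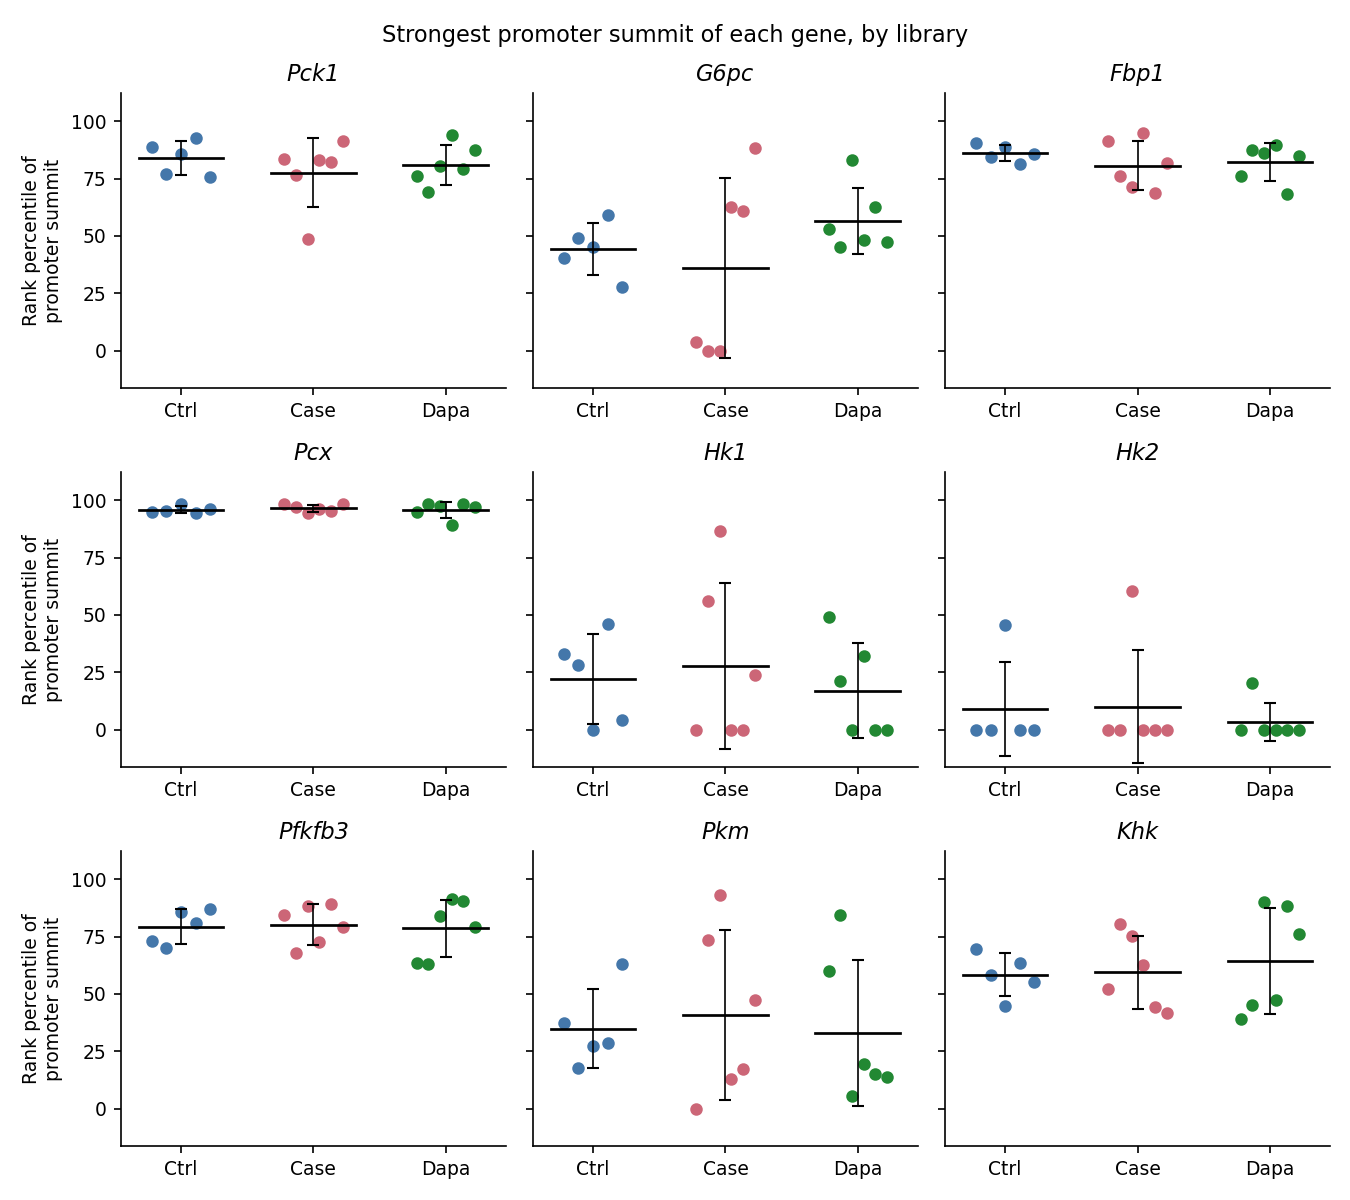
Rank percentile (vertical axis, no unit) of the strongest promoter summit of each gene, with 1 point per library in the Ctrl (n = 5), Case (n = 6) and Dapa (n = 6) groups, black lines for group means and bars for 1 SD, which are symmetric and can pass below 0. Pcx stayed between 89.2 and 98.4 in all libraries, whereas G6pc in Case ran from 0 to 88.2.

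Pck1 encodes cytosolic phosphoenolpyruvate carboxykinase, which turns oxaloacetate into phosphoenolpyruvate. Its gene lies on the plus strand of chr2:173153048-173159273 (mm10), and its promoter carried a summit in 17 of 17 libraries, centred −212 bp from the start. Ctrl libraries read 88.6, 76.9, 85.7, 92.5 and 75.7, Case libraries ran from 48.6 to 91.3 with a median of 82.7, and Dapa libraries from 69.1 to 93.9 with a median of 79.7. The groups overlapped, and the lowest value, 48.6, was that of Case 3, with the other Case libraries at 76.6 or above. The difference between Case and Ctrl was −6.32 points (SE 6.49, 95% interval −19.7 to 7.06, limma adjusted p = 0.73), and that between Dapa and Case was 3.44 (interval −9.32 to 16.2, limma adjusted p = 0.947). The former difference was −0.53 without Case 3 and −4.17 without Ctrl 4. Without the 3 libraries set apart it was 1.16 and the latter −1.66, both of the opposite sign. A second region overlapped the gene's 3′ end, with its summits beyond it, at chr2:173159245-173160615 and was seen in 2 Ctrl, 2 Case and 4 Dapa libraries, or in 5, 4 and 5 of them when the complete lists were read.

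G6pc encodes the catalytic subunit of glucose-6-phosphatase, which releases free glucose. It lies on the plus strand of chr11:101367561-101377903 and showed 3 regions, a promoter region centred 72 bp inside the first, untranslated exon and 2 upstream regions at −2705 and −5068 bp. Promoter values in Ctrl were 40.6, 49.0, 45.3, 59.1 and 27.9. In Case they were 3.87, 0, 0, 62.8, 61.0 and 88.2, and in Dapa they ran from 45.1 to 82.9 with a median of 50.7. Case libraries thus spread widest, with Case 2 and Case 3 lacking a promoter summit, Case 1 close to the floor and Case 6 above every library of the other groups. The difference was −8.41 between Case and Ctrl (SE 15.4, interval −40.1 to 23.3, limma adjusted p = 0.866), and ran from −18.9 without Case 6 to −1.21 without Case 2 or Case 3. Between Dapa and Case it was 20.6 (SE 14.7, interval −9.65 to 50.8, limma adjusted p = 0.857, exact permutation test, 2-sided, p = 0.249). It did not exceed the spread between mice, and ran from 13.4 without Case 2 or Case 3 to 31.0 without Case 6. Without the 3 libraries set apart it was 4.89, and the Case against Ctrl difference was 9.59, of the opposite sign. Among the top 14851 summits of each list the Dapa against Case difference turned to −4.50. Case 3 had no summit anywhere in the G6pc window, which runs from 10 kb upstream to the gene end, while the other 16 libraries had 2 or 3. The region at −5068 bp was found in every library but Case 3, and ranked above the promoter itself in each group (medians 72.1, 77.6 and 85.1).

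Fbp1 encodes fructose-1,6-bisphosphatase, the enzyme that opposes phosphofructokinase. It lies on the minus strand of chr13:62864753-62888282, with a promoter summit in all 17 libraries, centred 7 bp after the start. Its promoter read 90.3, 84.3, 88.9, 81.4 and 85.7 in Ctrl, 68.7 to 94.9 with a median of 79.0 in Case, and 68.1 to 89.4 with a median of 85.5 in Dapa. The groups overlapped, with a Case against Ctrl difference of −5.47 (SE 5.17, interval −16.1 to 5.20, limma adjusted p = 0.71), the smallest limma p of the 9 genes in that comparison before adjustment, 0.301. It was −1.98 without the 3 libraries set apart, −3.07 without Case 5, −3.58 without Case 3 and −8.32 without Case 4. Introns held 3 further regions. One of them, centred 17469 bp into the gene, was present in 5 Ctrl, 3 Case and 4 Dapa libraries, or in 5, 5 and 4 with complete lists. Another, at 10854 bp, was present in 3 Ctrl, 2 Case and 0 Dapa libraries, or in 3, 4 and 0 with complete lists. Dapa against Ctrl could not reach the threshold there (Fisher's exact test, 2-sided, p = 0.0606). The number of summits across the Fbp1 window ran from 4 to 5 in Ctrl, 3 to 4 in Case and 2 to 4 in Dapa, and from 4 to 5, 3 to 7 and 3 to 4 in the complete lists.

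Pcx encodes pyruvate carboxylase, the mitochondrial enzyme that makes oxaloacetate. It spans chr19:4510472-4621752 on the plus strand and was the most uniform gene, with promoter values of 95, 95.4, 98.4, 94.3 and 96.2 in Ctrl, 94.3 to 98.2 in Case and 89.2 to 98.4 in Dapa. Its 95% intervals were narrow, from −2.75 to 3.89 for Case against Ctrl and from −3.77 to 2.56 for Dapa against Case (limma adjusted p = 0.92 and 0.968). Along the gene 3 regions were found in all 17 libraries. They were the 5′ promoter, centred at −144 bp, a region 47490 bp into the gene and at −848 bp from an internal start, and a region at 83837 bp, at −37 bp from another internal start. Others were less regular. The intronic region at 59925 bp was present in 2 Ctrl, 4 Case and 5 Dapa libraries, and the region in a coding exon at 94029 bp in 2, 3 and 5 of them (Dapa against Ctrl for either region, Fisher's exact test, 2-sided, p = 0.242).

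Among the glycolytic genes, Pfkfb3 encodes the bifunctional enzyme that makes fructose-2,6-bisphosphate, the activator of phosphofructokinase. On the minus strand of chr2:11471433-11554077 it held 12 regions, more than any other of the 9 genes. Its promoter level, taken over 13 starts, was 72.9, 69.9, 85.6, 81.0 and 86.9 in Ctrl, 67.6 to 89.2 in Case and 63.2 to 91.2 in Dapa. The groups overlapped throughout, with a difference of 0.94 for Case against Ctrl (interval −12.2 to 14.1, limma adjusted p = 0.971). Inside the gene the strongest region, at 18462 bp, was present in all 17 libraries, with group medians of 92.6, 90.2 and 88.9. Near internal starts, regions at 51943 and 52646 bp were present in 10 and 16 libraries, whereas the region at 416 bp, nearest the 5′ end, was present in 7.

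Within Pfkfb3 an intronic region at chr2:11545923-11546584, centred 7779 bp from the 5′ end, separated the groups by presence. All 5 Ctrl libraries had it, at percentiles of 18.2, 54.2, 47.8, 61.2 and 16.8. None of the 6 Case libraries had it, and of the 6 Dapa libraries Dapa 11 alone did, at 27.2. The complete lists gave the same counts of 5, 0 and 1. Case libraries differed from Ctrl at an unadjusted p of 0.00216 (Fisher's exact test, 2-sided), the smallest that 5 against 6 libraries can give, and Dapa libraries from Ctrl at 0.0152. Neither of these Fisher's exact tests passed adjustment over all regions tested (adjusted p = 0.133 and 0.188), and over the alternatives for Case against Ctrl the adjusted p ran from 0.123 to 0.61. Dapa against Case, at 1 and 0 libraries, could not reach the threshold. Among the top 14851 summits 2 Ctrl libraries and no other had the region, and without the 3 libraries set apart the counts were 5 of 5, 0 of 4 and 1 of 5 (Fisher's exact test, unadjusted p = 0.00794 for Case and 0.0476 for Dapa against Ctrl). Its sequence is the intronic one printed above, at a GC content of 49.3%.

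**Figure D2:**
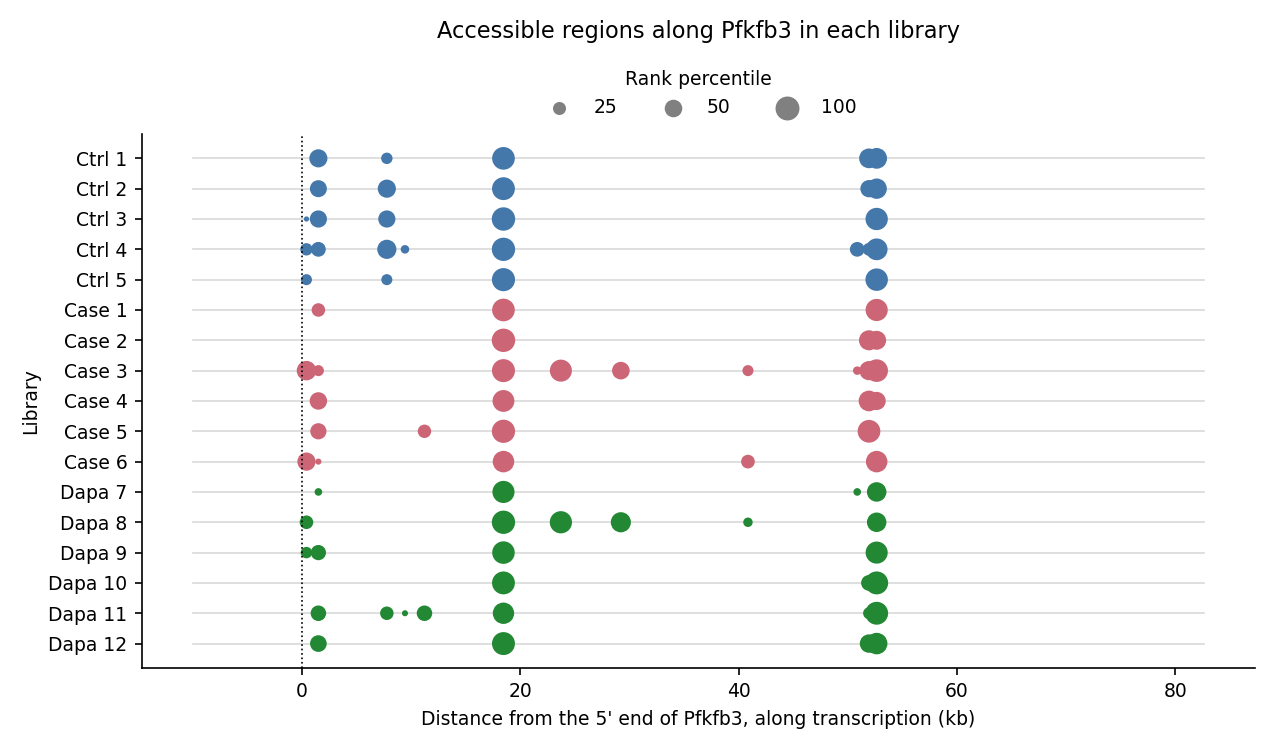
Accessible regions along Pfkfb3 in each of the 17 libraries (rows), by distance in kb from the 5′ end of the gene along transcription (horizontal axis), with the area of a point proportional to the rank percentile of its strongest summit. The region at 18462 bp is present in every row, that at 7779 bp in all 5 Ctrl rows and Dapa 11, and those at 23720 and 29215 bp in Case 3 and Dapa 8 alone.

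Hexokinases phosphorylate glucose on entry to the cell. Hk2 is the insulin- and hypoxia-responsive form, and lies on the minus strand of chr6:82725025-82774454. Its promoter had no summit among the top 29702 in 14 of 17 libraries and had one in Ctrl 3 at 45.8, in Case 3 at 60.3 and in Dapa 8 at 20.3. These 3, which Ctrl 2 joins when complete lists are read, were spread over the 3 groups, so the group differences, 0.88 for Case against Ctrl and −6.67 for Dapa against Case, rest on 1 library in each group (limma adjusted p = 0.985 and 0.923). Hk1, the form found in most tissues, lies on the minus strand of chr10:62268855-62379908. It read 32.8, 28.3, 0, 46 and 4.24 in Ctrl, 0 to 86.7 with a median of 12.0 in Case and 0 to 49.2 with a median of 10.6 in Dapa. Its main region lay at an internal start 39671 bp into the gene, in 4, 3 and 2 libraries, and 19 bp from the start of the antisense gene Hk1os. ATAC-seq carries no strand, so accessibility there cannot be assigned to either gene. Case 3 was highest, and without the 3 libraries set apart the Case against Ctrl difference of 5.52 became −16.3.

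Pkm encodes the M-type pyruvate kinase, the last step of glycolysis, on the plus strand of chr9:59656368-59679375. Promoter values were 37.4, 17.7, 27.5, 28.8 and 62.9 in Ctrl, 0 to 93.2 with a median of 32.3 in Case, and 5.59 to 84.5 with a median of 17.3 in Dapa. The widest spread was within the db/db groups, where Case 3 at 93.2, Dapa 8 at 84.5 and Case 2 at 73.7 stood above every Ctrl library. The Case against Ctrl difference of 5.90 (interval −28.8 to 40.6, limma adjusted p = 0.921) turned to −15.4 without those 3 libraries. It was also negative with complete lists, at −9.10, but 26.5 for the gene window and 17.1 among the top 14851 summits. The Dapa against Case difference of −7.71 became −22.0 for the gene window and 3.34 without those 3 libraries. At the 5′ start the region was present in 2, 4 and 3 libraries of Ctrl, Case and Dapa. A region in an untranslated exon at an internal start 8747 bp downstream was present in 4, 3 and 3, and an intronic one at 22137 bp, which lies 1639 bp from a start of the neighbouring gene Gramd2, in 3, 4 and 5.

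Khk encodes ketohexokinase, which phosphorylates fructose and is abundant in the proximal tubule. It lies on the plus strand of chr5:30921431-30931248 and read 69.7, 58.4, 44.8, 63.4 and 55.3 in Ctrl, 41.8 to 80.5 with a median of 57.3 in Case, and 39.2 to 90.2 with a median of 61.8 in Dapa. The 3 groups overlapped, with differences of 1.03 for Case against Ctrl and 5.11 for Dapa against Case (limma adjusted p = 0.985 and 0.961), or −8.18 and 18.2 without the 3 libraries set apart. Khk had 3 regions in all 17 libraries, centred at 405, 4018 and −5346 bp from its 5′ end. The upstream region lies 2346 bp from a start of Emilin1, nearer than to Khk. An intronic region at 4843 bp was present in 4 Ctrl, 4 Case and 6 Dapa libraries.

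**Figure D3:**
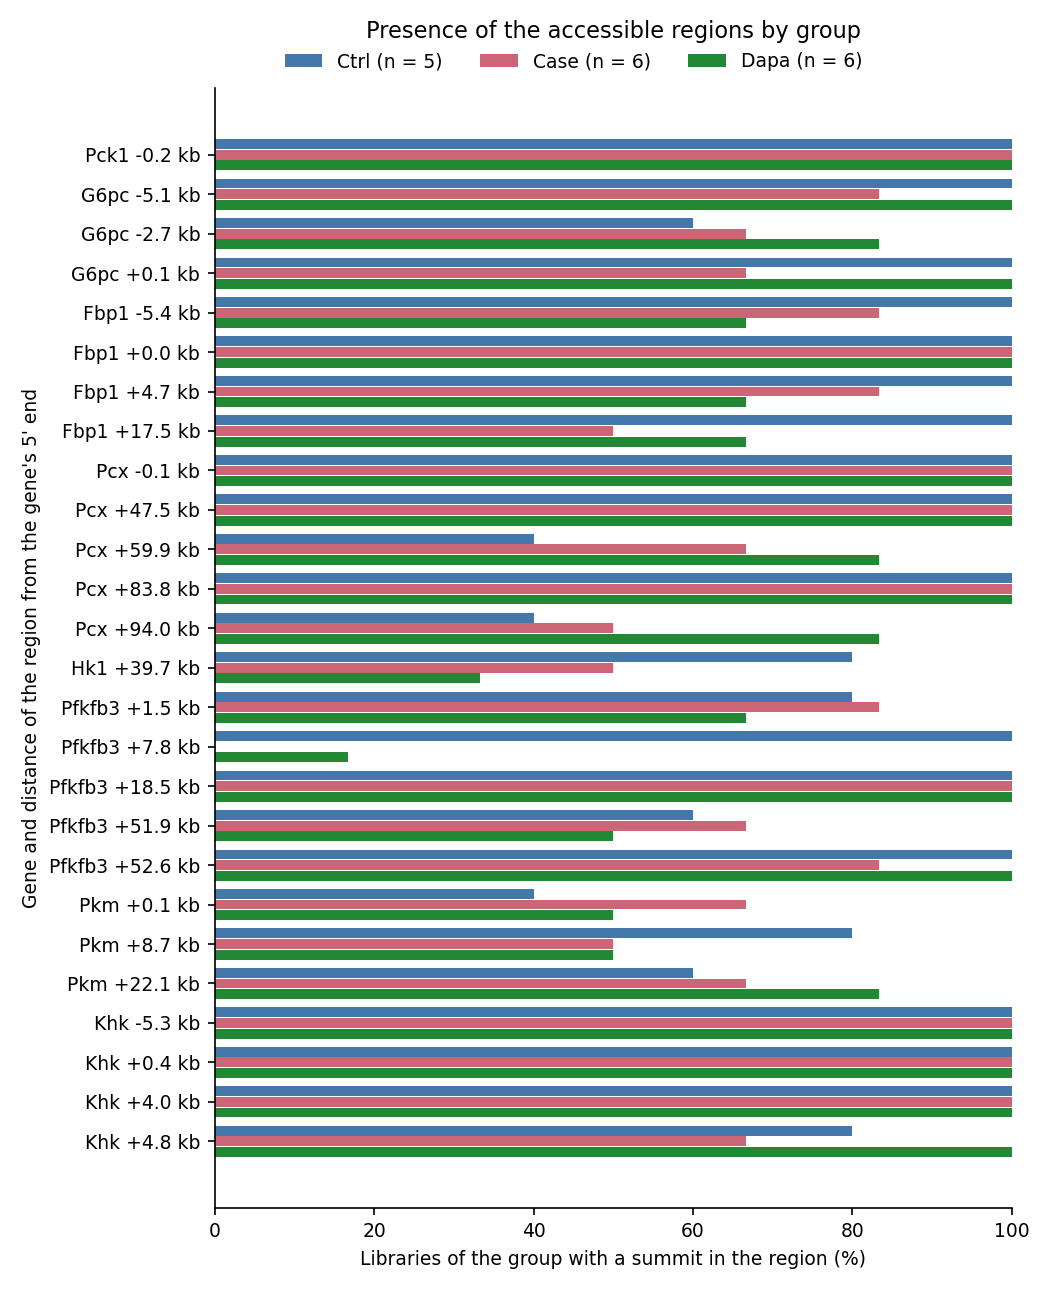
Share of the libraries of each group (%, horizontal axis) with a summit in the 26 regions that were found in at least 9 libraries or differed at an unadjusted p under 0.05, named by gene and distance in kb from its 5′ end. At the Pfkfb3 intronic region, 7779 bp from the 5′ end, the bars stand for 5 Ctrl, 0 Case and 1 Dapa libraries.

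Across the 9 genes, the question of whether promoter accessibility differed between groups was answered for all genes together with limma on 12503 genes. None of the 9 passed an adjusted p of 0.05 in any comparison, nor an unadjusted one. For Case against Ctrl 0.52% of all genes passed the adjusted threshold and 12.9% the unadjusted one. For Dapa against Case these shares were 0.008% and 5.89%, and for Dapa against Ctrl 0.28% and 13.0%. The adjusted p of the 9 genes ran from 0.71 to 0.985 for Case against Ctrl, from 0.857 to 0.98 for Dapa against Case and from 0.788 to 0.997 for Dapa against Ctrl. Their median difference was 0.88, −0.60 and −1.81 points in that order, beside −2.55, 0.16 and −2.34 over all genes tested. Comparisons share their Case or Ctrl libraries and are not independent. For G6pc the interval of −40.1 to 23.3 between Case and Ctrl includes large changes in either direction. For Pcx, at the upper end of the scale, the intervals stayed within 4 points of 0 in each comparison.

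**Figure D4:**
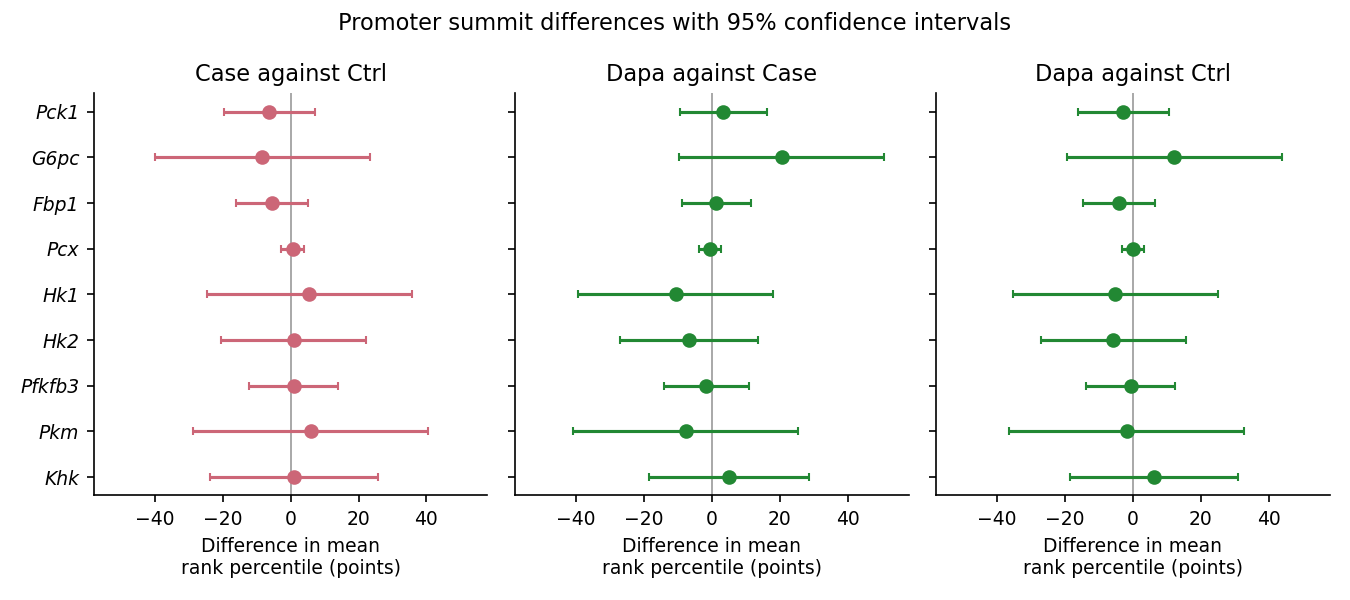
Difference in mean promoter rank percentile (points, horizontal axis) for each of the 9 genes in the 3 comparisons, with points for the limma estimates and bars for their 95% confidence intervals. All 27 intervals include 0. They are narrow for Pcx and wide for Pkm (−28.8 to 40.6 in Case against Ctrl).

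Accessible regions were compared by presence. The 9 windows held 428 summits in the equal-length lists and overlapped 41 regions found in at least 2 libraries. The summits of the Pck1 region downstream lay past the gene end and are not among the 428. Of the 41 regions, 25 were found in at least 9 libraries and 9 in all 17. In all, 61.0% of the regions at these genes were found in at least 9 libraries, against 41.7% of 52423 regions genome-wide. Of the 26 found in at least 9 libraries or with an unadjusted p under 0.05, 13 lay in introns, 6 in untranslated exons, 6 upstream and 1 in a coding exon. For Case against Ctrl 13 of the 41 could be tested and 0 passed the adjusted threshold, as did 0.0% of all 11417 regions tested. At an unadjusted p under 0.05 there was 1 of 13 (7.69%), the Pfkfb3 intronic region, beside 10.2% of all regions. For Dapa against Case 0 of 6 passed either threshold, beside 0.0% and 1.17% of 7176. For Dapa against Ctrl 0 of 10 passed with adjustment and 1 without, beside 0.0% and 8.04% of 10872. In each comparison the difference between the share at these genes and that of all regions was under 1 region, so the counts are no result about the genes as a set.

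Case 3 stood apart across the genes of both directions of flow. Its mean over the Pck1, G6pc, Fbp1 and Pcx promoters was 53.5, with the other 16 libraries from 62.4 to 89.9, and its mean over Hk1, Hk2, Pfkfb3 and Pkm was 82.1, with the others from 21.1 to 49.4. It was the only library in which the glycolytic mean exceeded the gluconeogenic one. Case 3 and Dapa 8 also shared Pfkfb3 intronic regions that no other library had, at 23720 bp (percentiles 83.3 and 84.8) and at 29215 bp (50.4 and 68.2). Both also had a Hk2 promoter summit, as had Ctrl 3, and the highest Pkm values. Case 3 and Dapa 8 had the lowest summed percentile of the 8 proximal tubule markers, 169.7 and 172.4, with 226.9 to 464.6 in the other 15. The markers were not uniformly low. Lrp2 in Case 3 (84.6) and Cubn in Dapa 8 (55.9) lay within the Ctrl range, as did Slc13a3 and Slc7a13 in both. Aqp1 (70.7 and 75.15), Slc34a1 (5.38 and 19.8), Slc5a12 and Slc22a6 (both at 0) lay below every Ctrl library. So did Cubn in Case 3 (0) and Lrp2 in Dapa 8 (21.5). The summed percentile of the 10 leukocyte markers was the highest in Case 3 and Dapa 8, 146.1 and 99.4, with 0 to 79.4 in the others. By group the leukocyte sum ran from 0 to 39.99 in Ctrl, 0 to 146.1 in Case and 0 to 99.4 in Dapa. It came from 3 of the 10 markers in Case 3 (Laptm5, Coro1a and Csf1r) and 2 in Dapa 8 (Laptm5 and Coro1a), with Ptprc, Cd79a, Adgre1 and Itgam at 0 everywhere. The part of these marker values in the Hk2, Pkm and Pfkfb3 values was not tested.

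**Figure D5:**
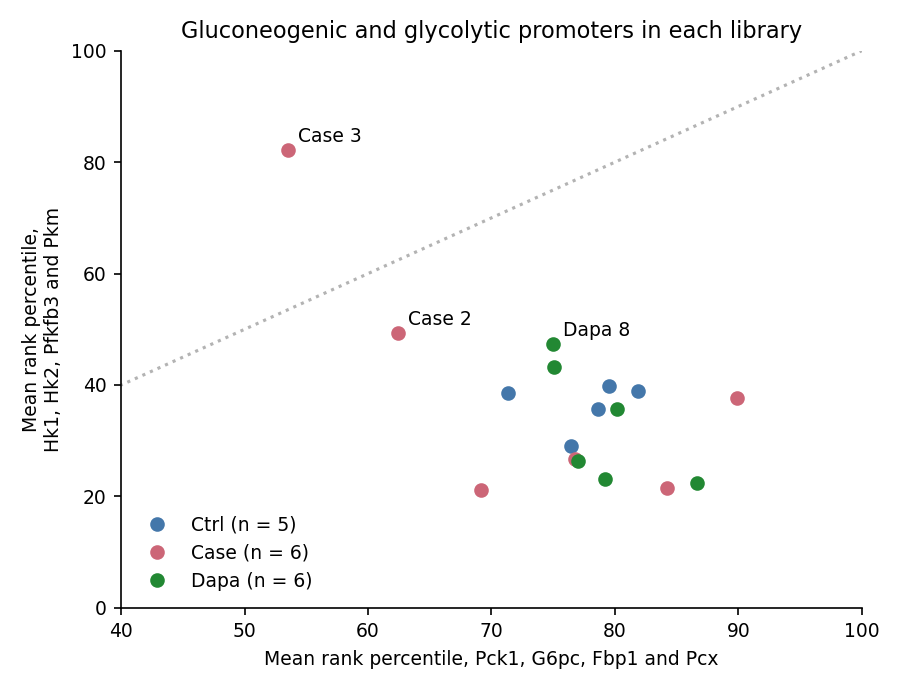
Mean promoter rank percentile of Hk1, Hk2, Pfkfb3 and Pkm (vertical axis, no unit) against that of Pck1, G6pc, Fbp1 and Pcx (horizontal axis, from 40) in each library, coloured by group, with the dotted line marking equal means. Case 3, at 53.5 and 82.1, is the only point above the line.

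Between pairs of the 9 genes the ranks over libraries were mostly unrelated. The closest pair was Hk1 and Pkm, with a Spearman's rho of 0.759 over 17 libraries and 0.779 over the 15 left without Case 3 and Dapa 8, and the most opposed pair was Pcx and Hk1 at −0.599. Such values share the libraries and their list quality and are given as a description. Among 10900 other genes with a promoter summit in at least 9 libraries, the most alike in rank to Pck1 were Arhgef1 (0.814) and Prkag3 (0.811), to G6pc Sh2d3c (0.861) and Mab21l3 (0.859), and to Fbp1 Cbx1 (0.821) and Tfb2m (0.809). For Pcx they were Rps27l (0.865) and Fbxo28 (0.75), for Khk Mkrn1 (0.782) and Ube4b (0.75), and for Pfkfb3 Anxa11 (0.797) and Spag1 (0.724). Hk1 was nearest to 4930467E23Rik (0.827) and Aimp1 (0.82), and Pkm to Rprd1b (0.857) and Tti1 (0.842).

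The other enzymes of these pathways were read from a list of 43 genes, of which 42 were matched and 35 had enough promoter summits to be tested. One of them, Pdk3, passed the adjusted threshold, lower in Case and in Dapa than in Ctrl, and 0 passed in Dapa against Case. The X-linked Pdk3 encodes a kinase that switches off pyruvate dehydrogenase. Its promoter read 60.1, 75, 57.6, 66.0 and 88.8 in Ctrl, 5.38 in Case 3 and 0 in the other 5 Case and all 6 Dapa libraries, without overlap. The differences were −68.6 (SE 8.14, limma adjusted p = 0.00013) for Case against Ctrl and −69.5 (limma adjusted p = 0.000102) for Dapa against Ctrl. In both comparisons the exact permutation test, 2-sided, gave the smallest p that it allows, 0.00216, and no gene passed by that test after adjustment over all genes. In a fit of Ctrl 1 to 5 and Case 1 to 5 alone with a replicate block, whose numbers do not pair the mice, the difference was −68.4 and was not called. Of 65 genes called in the former comparison 22 lay on X, as did 10 of 35 in the latter and 290 of the 12503 tested, and the share of summits on X was 1.41% to 1.86% in Ctrl, 1.04% to 1.81% in Case and 0.943% to 1.79% in Dapa. The part of that share in the Pdk3 difference was not tested.

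Pfkp, the platelet-type phosphofructokinase, read 50.6 to 84.7 in Ctrl and 0 to 35.0 in Case, also without overlap. Its Dapa libraries ran from 0 to 67.8 and overlapped Ctrl. The Case against Ctrl difference of −53.2 (SE 12.9) fell short of the threshold (limma adjusted p = 0.0573, exact permutation test, 2-sided, p = 0.00216), and passed it with scores of at least 5 (−57.9), without Case 2 (−56.9) and without Dapa 9 (−53.2). For Dapa the Pfkp difference was −47.75 from Ctrl (limma adjusted p = 0.117) and 5.43 from Case (limma adjusted p = 0.962). Pfkfb1, the X-linked liver-type relative of Pfkfb3, differed by −41.6 between Dapa and Ctrl (limma adjusted p = 0.0781), with 0 in all Dapa libraries and in Ctrl 4. Case libraries were nearly as low, at 0 in 5 of 6, with a difference of −38.7 from Ctrl (limma adjusted p = 0.0803). The Dapa against Ctrl difference passed the threshold with scores of at least 5 (−39.1) and without Ctrl 4 (−52.0). In the positive direction the next genes of the list were Slc37a4, the glucose-6-phosphate transporter, with a difference of 5.08 for Case against Ctrl (2.00 without Ctrl 2, limma adjusted p = 0.534), Akr1b3, aldose reductase, with 32.4 (21.0 without Case 3) and Tigar with 23.0 (11.5 without Case 4) for Dapa against Case (limma adjusted p = 0.785 and 0.817), and Aldoc with 24 for Dapa against Ctrl (limma adjusted p = 0.402). Gapdh had −13.7 for Dapa against Case (limma adjusted p = 0.814). At an unadjusted p under 0.05, 8 of the 35 enzymes were lower and 0 higher in Case than in Ctrl, beside 1339 lower and 274 higher of all 12503 genes. For Dapa against Case 3 were higher and 1 lower, beside 413 and 324 of all genes, and for Dapa against Ctrl 6 were lower and 0 higher, beside 1276 and 349. The enzymes lower than in Ctrl included the X-linked Pdk3 and Pfkfb1 in both Case and Dapa. The part of the share of summits on X in these counts was not tested. The median difference of the 35 enzymes was −2.58, 2.64 and −0.62 in the 3 comparisons, beside −2.55, 0.16 and −2.34 over all genes.

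Of 15 regulators of these pathways, all tested, 0 passed the adjusted threshold in any comparison. Of all genes 0.52% passed it for Case against Ctrl, 0.008% for Dapa against Case and 0.28% for Dapa against Ctrl. At an unadjusted p under 0.05 there was 1 higher, 1 higher and 1 lower regulator in that order, beside 12.9%, 5.89% and 13.0% of all genes. Srebf1, a transcription factor of lipid and glucose metabolism, had a difference of 16.5 for Dapa against Ctrl (limma adjusted p = 0.451). Mlx, the partner of the carbohydrate-response factor Mlxipl, had −20.7 for Dapa against Case (limma adjusted p = 0.828). Against Ctrl the Mlx difference was −28.4 for Dapa (limma adjusted p = 0.278, exact permutation test, 2-sided, p = 0.00216) and −7.71 for Case (limma adjusted p = 0.822). Mlx read 21.8 to 51.85 in Ctrl, 0 to 57.5 in Case and 0 to 20.4 in Dapa. Its Dapa against Case difference was −33.4 without Case 2, Case 3 and Dapa 8. It shrank to −12.6 for the gene window and to −2.49 among the top 14851 summits. The regulators' median difference was −1.44 for Case against Ctrl, 0.21 for Dapa against Case and 1.73 for Dapa against Ctrl. Over all genes it was −2.55, 0.16 and −2.34.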

How the data were processed

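ATAC-seq was performed on kidney cells of 17 mice. The authors aligned reads to mm10 with Bowtie2, removed duplicates and blacklisted regions and called summits with MACS2 for each library separately. The deposited value is the caller's −log10 p-value or q-value at each summit, and which of these is not given in the sources used here. It depends on depth, which is unknown, so it served only to rank summits within a library. Members and lists were chosen with earlier results of these data known. From each library the top 29702 summits of the 19 autosomes and the sex chromosomes entered. Promoter percentiles (GENCODE vM21) of 12503 protein-coding genes were fitted in 1 limma model (version 3.58.1, R 4.3.3, with trend) over the 3 groups, with Benjamini-Hochberg adjustment. Summits extended by 250 bp were merged into regions found in at least 2 libraries, with a 2-sided Fisher's exact test of presence for those able to reach p under 0.05. Both steps were tested on simulated data. Windows ran from 10 kb upstream to the gene end. Named genes were the 9 members, member regions found in at least 9 libraries or with an unadjusted p under 0.05, per comparison the 2 listed genes with the lowest p in each direction, and 2 most alike genes per member. The symbol Aldoa has more than 1 annotated gene and was not matched. Some genes that the rule names are not reported here. The study's own test of differential accessibility needs reads and was not repeated here. Promoters came from RefSeq (GRCm38.p6). Alternatives were other lists, distances, filters, tests and libraries.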

Additional observations from a re-analysis of the deposited data

Results flagged for a closer look

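In 27 groups of promoter values (9 genes in 3 groups) a library was marked when its gap to the nearest other library was a large part of the group's range, by Dixon's 95% criterion. Chance marks about 1 in 20 groups, or 1.35 of these 27, and 4 were marked. Pck1 in Case 3 was at 48.6, below the other Case libraries. The Hk2 promoter was at 45.8 in Ctrl 3, 60.3 in Case 3 and 20.3 in Dapa 8, each the only library of its group with a summit there among the top 29702, so that any value above 0 is marked.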

How the results depend on the processing

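The alternatives left the calls for the 9 genes and their regions at 0 in each comparison. The counts of all genes called moved. For Case against Ctrl, 65 genes became 144 with complete lists, 537 with scores of at least 5, 26 on autosomes, 108 for the gene window and 0 in a fit of Ctrl 1 to 5 and Case 1 to 5 alone with a replicate block, which also left out Case 6 and the Dapa libraries. By the exact permutation test the count was 0 in each comparison, since its smallest p, 0.00216, passes adjustment over 12503 genes only if many genes reach it. The replicate numbers do not pair the mice, with correlations of their deviations from −0.037 to 0.055. For Dapa against Ctrl, 35 became 196 with scores of at least 5, 21 on autosomes, 59 for the gene window, 58 without limma's trend, and 55 without Case 2, Case 3 and Dapa 8. For Dapa against Case, 1 became 0 with complete lists, the top 14851 summits, scores of at least 5, a promoter distance of 3 kb, the gene window, and without those 3 libraries. Leaving out 1 library at a time gave 36 (without Ctrl 1) to 94 (without Ctrl 4), 16 (without Dapa 10) to 62 (without Case 3) and 0 to 1 genes in the same order.

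No difference of the 9 genes passed the threshold in any setting, 73 of 716 changed sign, and 206 more moved by over 1.5 times in the same sign. Among the latter for Case against Ctrl, scores of at least 5 gave −21.0 for Pck1 and −15.2 for Fbp1, the top 14851 summits −12.2 and −10.9, and complete lists −18.2 for G6pc. For Case against Ctrl, complete lists turned Pcx to −0.27, Hk1 to −8.35, Hk2 to −11.3, Pfkfb3 to −3.75, Pkm to −9.10 and Khk to −4.20. Scores of at least 5 turned Pcx to −1.16, Hk1 to −3.82, Pfkfb3 to −11.0 and Khk to −13.6. Leaving out the 3 libraries turned Pck1 to 1.16, G6pc to 9.59, Hk1 to −16.3, Pkm to −15.4 and Khk to −8.18. G6pc also turned to 17 among the top 14851 summits and 0.73 at 3 kb, and Pfkfb3 to −3.82 for the gene window. For Dapa against Case, leaving out the 3 libraries turned Pck1 to −1.66, Fbp1 to −3.22, Hk1 to 10.3, Pfkfb3 to 0.26 and Pkm to 3.34. Pfkfb3 also turned to 2.11 with complete lists, 3.80 with scores of at least 5 and 1.37 for the gene window, Khk to −2.15 for the gene window and G6pc to −4.50 among the top 14851. For Dapa against Ctrl, Pfkfb3 turned to 2.34 without the 3 libraries, Pkm to 9.62 among the top 14851 and 4.50 for the gene window, and Khk to −4.51 with scores of at least 5. The cause was not tested.

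With 1 library left out, the Case against Ctrl differences that changed sign ran from −6.25 to 11.5 for Hk1, −1.41 to 2.89 for Hk2, −1.39 to 3.46 for Pfkfb3, −4.60 to 14.1 for Pkm and −3.20 to 4.53 for Khk. Hk2 has no value without Ctrl 3, Case 3 or Dapa 8, the libraries with its summit, since its promoter then fell under the minimum of 3 libraries. For Dapa against Case they ran from −2.35 to 6.19 for Pck1, −1.02 to 4.22 for Fbp1, −1.12 to 0.71 for Pcx, −17.1 to 1.1 for Hk1, −4.19 to 1.39 for Pfkfb3, −18.0 to 2.78 for Pkm and −0.049 to 10.2 for Khk. For Dapa against Ctrl they ran from −0.55 to 1.28 for Pcx, −11.6 to 0.79 for Hk1, −3.25 to 2.34 for Pfkfb3 and −12.1 to 5.20 for Pkm. For the Pfkfb3 intronic region, the Case against Ctrl difference in presence is −100 percentage points by construction with any 1 library left out, as it was in all Ctrl and no Case libraries, and was −40 among the top 14851 summits.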
